A study of Mus musculus with 4 samples.

Results

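The genes described here act in the G2 phase of the cell cycle and in mitosis. They were 60 genes given by name, found through the gene symbols of the deposited series table, and 42 of them could be measured and tested among 17660 genes or unnamed probes tested in all. RNA came from cultured aortic vascular smooth muscle cells of C57BL/6J mice with the genotype EP4-Tg, grown out of adult explants and kept in what the labels write as 10% DMEM. Prostaglandin E2 (PGE2), a lipid mediator, acts on several receptors, of which EP4 raises cyclic AMP. The groups were 2 cultures that had PGE2 for 24 h and 2 control cultures with no treatment over the same 24 h, all of the EP4-Tg genotype, each hybridised to 1 single-colour Agilent array. The labels name neither the dose of PGE2 nor the promoter or the receptor sequence of the EP4-Tg genotype, and they do not say whether the cultures came from separate animals, so that every p-value measures the spread between these samples, which may be technical.

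Entry into mitosis is driven by the kinase CDK1 bound to cyclins A and B. Polo-like and Aurora kinases then build the spindle, kinetochores attach chromosomes to it, and a checkpoint holds the anaphase-promoting complex (APC/C) in check until attachment is complete. The APC/C destroys securin and cyclin B, the sister chromatids part, and anillin, centralspindlin and RhoA signalling pinch the cell apart. Most of these genes are transcribed only in cycling cells, late in the cycle, under MuvB complexes with B-MYB and FOXM1. In the artery wall smooth muscle cells rarely divide, while in explant culture they can re-enter the cycle.

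Values are log2 intensities scaled so that the 75th percentile of each array is 0, and changes are PGE2 minus control on the log2 scale ± the standard error from limma (n = 2 arrays per group). A value below 0 is a signal under the array's 75th percentile. Because each probe binds its target with its own strength, the levels of different genes are not set against each other. In bulk RNA, fewer cells expressing a gene and less of its RNA per cell cannot be told apart.

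On each array 47.9% to 53.8% of spots were well above background. As to the labelled cell type, 8 of 12 smooth muscle markers were measured, among them Acta2 and Tagln, while Myh11, Lmod1, Des and Myocd did not pass the filter on dim probes. All 8 had a change below 0, limma called 0 of them (5 had an unadjusted p under 0.05), and their summed level was 212 and 269 on the PGE2 arrays, against 915 and 537 on the control arrays (1 is the 75th percentile). Acta2 stood at -2.10 ± 0.46. Of other cell types, 1 of 8 endothelial markers was measured (Pecam1, -0.15 ± 0.20), with a summed level of 0.0706 and 0.0878 with PGE2 and 0.0820 and 0.0934 in control. For the macrophage and leukocyte list, where 7 of 8 genes passed and Adgre1 did not, the sums were 62.4 and 42.1 with PGE2 and 78.8 and 64.7 in control. Cd68, a lysosomal protein of macrophages, stood at 2.09 ± 0.36. It was 1.35 with normexp, a background correction run here with an offset and quantile normalization. Csf1r and Cd14 stood at 0.98 ± 0.43 and 0.62 ± 0.27. For 6 of 7 fibroblast genes the sums were 408 and 342 with PGE2 and 616 and 452 in control. Dcn stood at -2.91 ± 0.46, Lum at -2.17 ± 0.49, Thy1 at -1.66 ± 1.56 and Pdgfra at 0.60 ± 0.75. Col1a1 at -0.01 ± 0.16 and Col1a2 at -0.15 ± 0.22 were named after their values were seen. The part of such cells in the results on mitotic genes was not tested.

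Most mitotic transcripts had lower values with PGE2, with large differences among the genes. Of the 42 measured genes 34 had a change below 0, or 81.0%, beside 52.7% of all genes tested. Their median change was -0.52, against -0.03 over all genes tested, and single values ran from -3.04 for Anln, the cytokinesis scaffold anillin, to 0.76 for Ccnf, a cyclin-like subunit of a ubiquitin ligase. In 24 of the 42, or 57.1%, both PGE2 arrays lay below both control arrays, which held for 28.3% of all genes tested. The opposite order held in 3 of the 42, beside 24.0% of all genes, and the groups overlapped in 15. The genes were chosen with earlier results of these data known, which limits each comparison with all genes. The scaling bears on the direction of the smaller values. On the authors' deposited scaled signal the median of all genes tested was 0.23, and 27 of the 42 were below 0 with a median of -0.26. That signal differs from the one used here by a constant for each array, which shifts every change alike and cannot alter the difference from all genes. Cks2, Cdc25b, Plk4, Aurka, Cdca8, Pttg1 and Tacc3 were above 0 on that scale.

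After Benjamini-Hochberg adjustment over all 17660 genes limma called 0 of the 42, beside 0.668% of all genes called in either direction and 0.272% called lower, and the smallest adjusted p among the 42 was 0.0749 for Sgol1. At an unadjusted p under 0.05, 17 of the 42 were lower (40.5%) and 1 was higher (2.38%), beside 10.5% lower and 7.31% higher among all genes tested. Without control replicate 2 the median change of the 42 was -0.37, and without PGE2 replicate 1 it was -0.44 (all genes -0.05 and -0.04). Without PGE2 replicate 2 it was -0.59, and without control replicate 1 it was -0.59 (all genes -0.02 and 0.01). In these fits 1 of the groups held 1 array, so their medians alone are given here. Of the 42 genes, 38 were well above background on all 4 arrays, and these had 30 values below 0, a median of -0.50 and 15 lower at an unadjusted p under 0.05. The other 4, Ccna2, Nuf2, Kif23 and Ect2, passed the filter through the control arrays alone, which favours a value below 0. Normexp, another background correction, was run with an offset of 50 on the median signal, followed by quantile normalization. What each of these steps adds was not tested. Together they brought 38 of the 42 changes nearer to 0, with a median of -0.31, and moved the fold by over 1.5 times in 6. These were Ccna2 at -0.81, Mki67 at -1.25, Ube2c at -1.33, Tpx2 at -0.82, Sgol1 at -0.68 and Ccnb1 at -0.58.

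**Figure D1:**
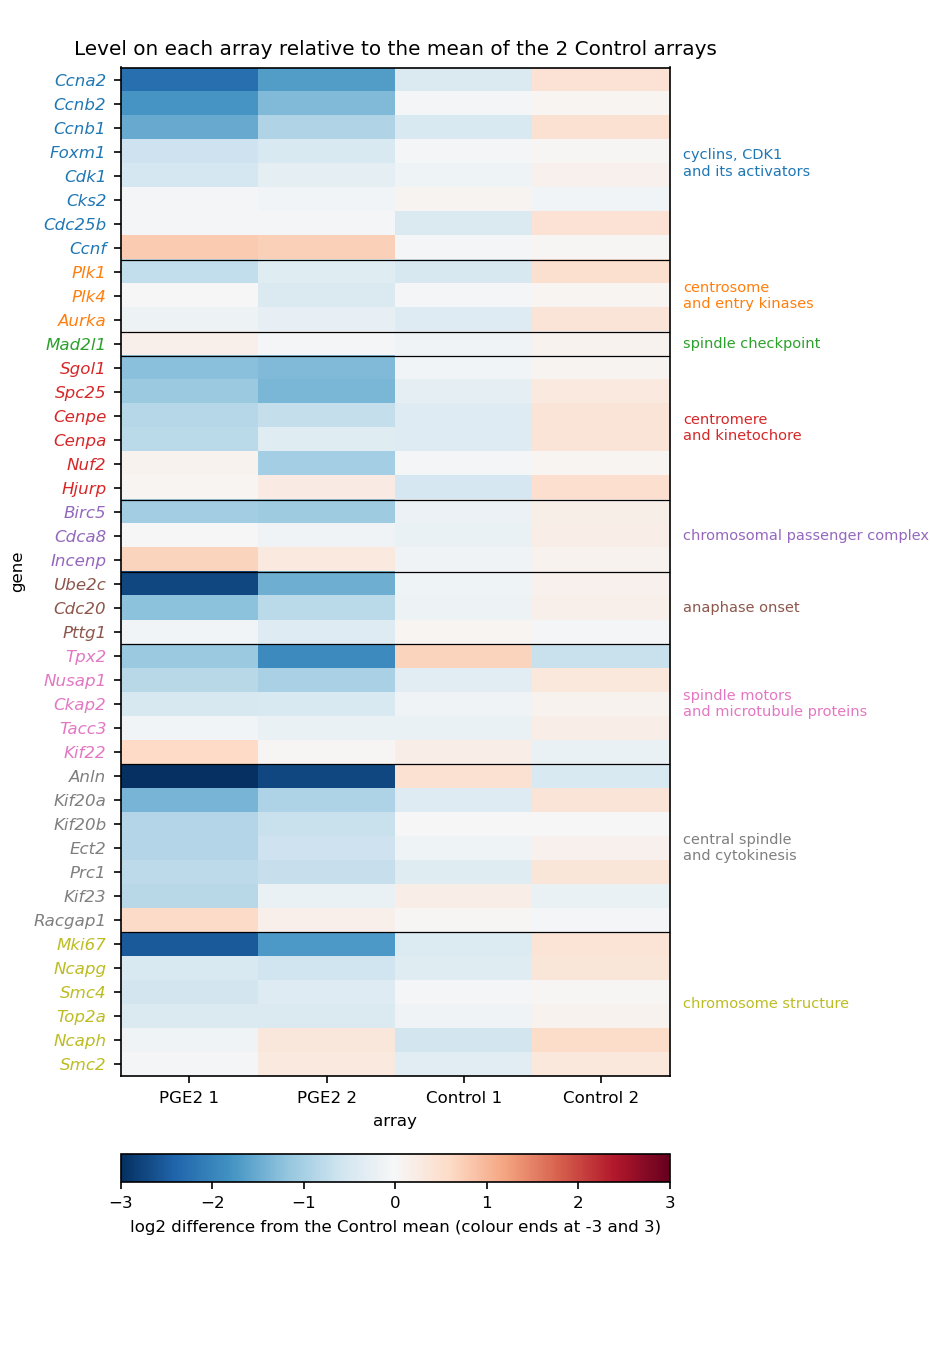
Level of the 42 measured genes on each array as a log2 difference from the mean of the 2 control arrays, with genes in rows by role and arrays in columns. Blue cells are lower; 24 rows have both PGE2 cells below both control cells, and Ccnf, Incenp and Racgap1 have both above.

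**Figure D2:**
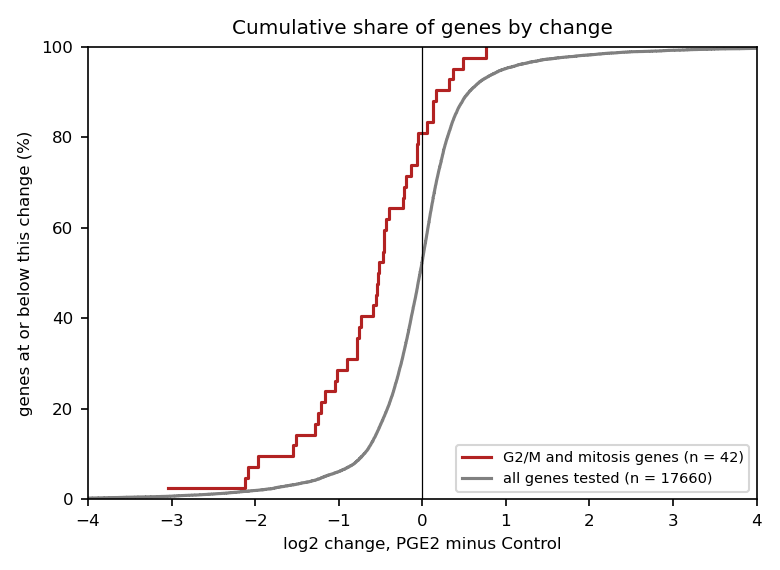
Share of genes at or below each log2 change (PGE2 minus control) for the 42 measured genes and for all 17660 genes tested. The line of the mitotic genes lies left of the other, with medians of -0.52 and -0.03.

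The 2 control arrays did not carry the same level of these genes. Control 2 was above control 1 in 34 of the 42, by a median of 0.25, whereas this order held in 39.0% of all genes tested. The 2 PGE2 arrays were closer, with PGE2 2 above PGE2 1 in 23 of the 42 and a median difference of 0.07. The median level of the 42 genes was -1.69 and -1.55 on PGE2 arrays 1 and 2, against -1.36 and -0.87 on control arrays 1 and 2. Compared with control 2, PGE2 1 and PGE2 2 were lower in 35 and 36 of the 42 (median differences -0.65 and -0.66). These are 83.3% and 85.7%, beside 47.6% and 50.9% of all genes tested. Compared with control 1 the PGE2 arrays were lower in 28 and 29 (medians -0.42 and -0.34). These are 66.7% and 69.0%, beside 54.1% and 57.1% of all genes tested. Both controls thus gave the same order as the group means. Against control 1 the difference was smaller, and the shares lay nearer to those of all genes.

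The remaining 18 genes had too little signal for a comparison. Of these, 14 stayed near background on all 4 arrays: Melk, Nek2, Bub1, Ttk, Ndc80, Aurkb, Espl1, Kif2c, Kif4, Kif11, Ckap2l, Dlgap5, Kif14 and Cit. Cdc25c, Bub1b and Cenpf were above background on 1 control array and no PGE2 array, and Iqgap3 on 1 PGE2 array and no control array. Aurkb, the kinase of the chromosomal passenger complex, had -5.51 and -5.20 with PGE2, against -4.25 and -3.99 in control, on 1 of its 2 probes. The other Aurkb probe had -5.24 and -5.23 with PGE2, against -4.76 and -4.54 in control, a smaller difference. All these values were near background. Counting any probe, 40 and 41 of the 60 genes were well above background on the PGE2 arrays and 44 and 43 on the control arrays, while over all named genes the shares were 53.3% and 57.1% with PGE2 and 54.5% and 52.5% in control.

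A feature that these genes share without regard to their signal lies in the promoters. The cell cycle homology region (CHR), searched here as TTTGAA or TTTAAA, is the element that MuvB complexes bind in late cell cycle genes, and the CCAAT box, searched as CCAAT, is the site of the factor NF-Y. Both were searched on both strands; the other strand of TTTGAA is spelled TTCAAA and that of CCAAT is spelled ATTGG. A CHR and a CCAAT match can share 1 base, which none do in the promoters printed here. RefSeq promoters (build GRCm38.p6, 250 bases before to 50 after the start) were on hand for 51 of the 60 genes, 53 promoters in all, and Aurkb, Ccna2, Cdc25c, Dlgap5, Foxm1, Incenp, Kif20a, Smc4 and Tpx2 were not matched. CHR letters beginning within 50 bases of the start stood in 35 of the 53 (66.0%), against 8.28% of all 32851 promoters of that length and 5.14% of the 13837 promoters of tested genes. CCAAT letters stood in 38 of 53 (71.7%), against 37.4% of all promoters, and 22 of 53 had CCAAT at 2 or more places (41.5%, against 11.7% of all). The 55 promoters of other mitosis genes had CHR letters near the start in 43.6%, CCAAT letters in 65.5% and CCAAT at 2 or more places in 41.8%. A match is a match of letters and says nothing of binding in these cells.

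Promoters of the 4 genes with the smallest p-values among those that hold both motifs show the arrangement, with CHR and CCAAT letters in capitals. Each runs 5′ to 3′ on the minus strand of GRCm38.p6 and begins 150 bases before the annotated start. For Mki67 and Ccnf it ends at the start, and for Ccnb2 and Spc25 it runs 10 and 30 bases further, to the end of the CHR letters. Ccnb2 lies at chr9:70421545-70421704, Mki67 at chr7:135716380-135716529, Ccnf at chr17:24251410-24251559 and Spc25 at chr2:69206184-69206363.
Ccnb2: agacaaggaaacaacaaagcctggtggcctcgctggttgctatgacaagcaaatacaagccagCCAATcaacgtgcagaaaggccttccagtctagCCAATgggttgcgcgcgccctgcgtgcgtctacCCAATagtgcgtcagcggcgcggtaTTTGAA
Mki67: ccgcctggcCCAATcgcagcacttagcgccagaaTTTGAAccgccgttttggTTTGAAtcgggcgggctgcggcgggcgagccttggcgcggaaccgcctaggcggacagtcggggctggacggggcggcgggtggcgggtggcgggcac
Ccnf: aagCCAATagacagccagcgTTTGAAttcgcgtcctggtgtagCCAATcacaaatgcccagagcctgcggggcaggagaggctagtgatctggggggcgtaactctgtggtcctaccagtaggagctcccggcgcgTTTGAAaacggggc
Spc25: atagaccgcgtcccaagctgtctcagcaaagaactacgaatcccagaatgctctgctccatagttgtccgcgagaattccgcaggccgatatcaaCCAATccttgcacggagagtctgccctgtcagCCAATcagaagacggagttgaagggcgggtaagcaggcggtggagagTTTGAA

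Ccnb2 has 3 CCAAT boxes, starting 87, 54 and 21 bases before the start, and CHR letters 5 bases after it, with more CHR letters 167 bases before it, outside the stretch shown. Spc25 has the same order, with CCAAT at 55 and 23 bases before the start and CHR 25 bases after it. Mki67 has CHR letters at 116 and 98 bases before the start and CCAAT letters at 141, with more of these at 166 and 188 outside the stretch shown. Ccnf has CHR at 130 and 14 bases before the start and CCAAT at 147 and 107. The 21 measured genes with CHR near the start and CCAAT in 1 promoter had a median change of -0.53, with 16 below 0 and 6 lower at an unadjusted p under 0.05 (28.6%). The other 15 with a promoter had a median of -0.46, with 13 below 0 and 7 lower by that measure (46.7%). Among tested genes outside the 60, the 253 with that promoter pattern had a median of 0.04 and 10.3% lower at an unadjusted p under 0.05, beside 0.01 and 8.89% of the 10570 without it. Ccnf, with both motifs, had a value above 0.

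Among the cyclins, CDK1 and its activators, 8 of 10 genes were measured and 7 had a change below 0 (median -0.47). The mitotic cyclins stood lowest. Ccnb2, cyclin B2, had -2.46 and -2.02 on the PGE2 arrays, against -0.76 and -0.63 on the control arrays, a change of -1.55 ± 0.22 (adjusted p = 0.0868, limma). The groups did not overlap, and replicates differed by far less than the groups. Ccna2, cyclin A2, had -4.88 and -4.28 with PGE2, against -3.06 and -2.18 in control, at -1.97 ± 0.40 (adjusted p = 0.138), or -0.81 with normexp. Only 1 PGE2 array was well above background for Ccna2. Ccnb1, cyclin B1, had -3.79 and -3.17 with PGE2, against -2.74 and -1.81 in control, at -1.21 ± 0.42 (adjusted p = 0.264). The groups of Ccnb1 did not overlap, but its control arrays differed from each other by more than PGE2 2 and control 1 did.

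Cdk1, the kinase these cyclins activate, was less far from 0 than the cyclins. It had -1.52 and -1.26 with PGE2, against -1.11 and -0.87 in control, at -0.40 ± 0.19 (adjusted p = 0.372). Foxm1, a transcription factor of late cell cycle genes, had -1.57 and -1.39 with PGE2, against -0.98 and -0.89 in control, at -0.54 ± 0.16 (adjusted p = 0.230). In both the PGE2 arrays lay below the control arrays. Cks2, a small subunit that docks on CDK1, and Cdc25b, a phosphatase that activates it, stood at -0.06 ± 0.16 and -0.05 ± 0.34, with overlapping arrays.

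Ccnf stood on the other side of 0. It encodes cyclin F, which binds no CDK and serves as a substrate receptor of the SCF ubiquitin ligase. Its brightest probe had -0.10 and -0.17 with PGE2, against -0.94 and -0.85 in control, at 0.76 ± 0.15 (adjusted p = 0.137, limma). The groups did not overlap, and this was the only one of the 42 above 0 with an unadjusted p under 0.05 (0.00705). The other Ccnf probes did not pass the filter and stood at -0.19 and 0.27, so that the value rests on 1 probe.

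Of the centrosome and entry kinases 3 of 4 were measured, all 3 below 0 (Plk1 alone on the authors' scale) and all with overlapping groups (median -0.22). Plk1, which drives entry and centrosome maturation, had -2.36 and -1.97 with PGE2, against -2.09 and -1.13 in control, at -0.55 ± 0.39 (adjusted p = 0.515, limma). PGE2 2 was above control 1. Plk4, the kinase of centriole duplication, stood at -0.22 ± 0.21, and Aurka, the spindle pole Aurora kinase, at -0.20 ± 0.31. Of the 4 spindle checkpoint genes only Mad2l1, the gene of the checkpoint protein MAD2, was measured. It had -0.67 and -0.85 with PGE2, against -0.93 and -0.70 in control, at 0.05 ± 0.18, with overlapping groups.

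Centromere and kinetochore genes had 5 of 6 measured values below 0 (median -0.69). Sgol1 encodes shugoshin, which guards the cohesin between sister centromeres. It had -3.56 and -3.63 with PGE2, against -2.41 and -2.23 in control, at -1.28 ± 0.16 (adjusted p = 0.0749, limma). Replicates of Sgol1 lay close together in both groups, and the groups were well apart. Spc25, a subunit of the NDC80 complex that grips microtubules, had -0.05 and -0.30 with PGE2, against 0.78 and 1.35 in control, at -1.24 ± 0.26 (adjusted p = 0.146). Its dimmer kept probe gave -1.42. Cenpe, a kinesin of the kinetochore, stood at -0.79 ± 0.31, with PGE2 arrays below control arrays. Nuf2, another NDC80 subunit, and Cenpa, the centromeric histone, stood at -0.46 ± 0.42 and -0.59 ± 0.34, with overlapping groups. Hjurp, the chaperone that loads the Cenpa protein, had -1.32 and -1.13 with PGE2, against -1.89 and -0.87 in control, at 0.16 ± 0.39, with both PGE2 values between the control values.

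Measured genes of the chromosomal passenger complex, which corrects faulty attachments, stood on both sides of 0. Birc5, its subunit survivin, had -1.57 and -1.58 with PGE2, against -0.70 and -0.34 in control, at -1.05 ± 0.19 (adjusted p = 0.123, limma). A dimmer Birc5 probe, above background on 1 control array, stood at -1.59. Incenp, the scaffold, had 1.96 and 1.60 with PGE2, against 1.20 and 1.40 in control, at 0.48 ± 0.21 (adjusted p = 0.332), and its other kept probe gave 0.41. Birc5 lay lower and Incenp higher without overlap. Cdca8, the subunit borealin, stood at -0.06 ± 0.20.

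Genes of anaphase onset were below 0 in 3 of 3 measured (2 on the authors' scale, without Pttg1), each with both PGE2 arrays under both control arrays (median -1.02). Ube2c, the ubiquitin-conjugating enzyme of the APC/C, had -3.88 and -2.62 with PGE2, against -1.28 and -1.04 in control, at -2.09 ± 0.47 (adjusted p = 0.160, limma). The PGE2 arrays of Ube2c differed from each other by more than the control arrays did. Cdc20, the mitotic activator of the APC/C, had -1.84 and -1.42 with PGE2, against -0.76 and -0.46 in control, at -1.02 ± 0.23 (adjusted p = 0.162), and a dimmer kept probe gave -0.81. Pttg1, securin, had 2.39 and 2.10 with PGE2, against 2.54 and 2.41 in control, at -0.23 ± 0.19 (adjusted p = 0.574), a difference smaller than the gap between its PGE2 arrays.

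Spindle motors and microtubule proteins were measured in 5 of 10 genes, with 4 below 0 (median -0.47). Tpx2, which targets Aurora A to the spindle, had -2.39 and -3.17 with PGE2, against -0.61 and -1.94 in control, at -1.51 ± 0.56 (adjusted p = 0.281, limma). Its replicates differed widely within each group. Nusap1, a microtubule bundler at the spindle, had -3.65 and -3.79 with PGE2, against -3.15 and -2.50 in control, at -0.90 ± 0.28 (adjusted p = 0.234). Ckap2, another microtubule protein of the spindle, stood at -0.47 ± 0.16 without overlap. Tacc3, which stabilises kinetochore fibres, stood at -0.13 ± 0.21. Kif22, a chromokinesin that pushes chromosome arms, had 0.56 and -0.02 with PGE2, against 0.15 and -0.24 in control, at 0.32 ± 0.28, with overlapping groups.

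Genes of the central spindle and of cytokinesis had 6 of 7 measured values below 0 (median -0.76), and they held the largest single difference. Anln, the gene of anillin, which ties the contractile ring to the membrane, had -1.68 and -1.04 with PGE2, against 2.14 and 1.23 in control. That is a change of -3.04 ± 0.41, or 8.25-fold lower (adjusted p = 0.0820, limma). The groups were far apart, and the other Anln probe stayed near background on all 4 arrays. Kif20b, a kinesin needed late in cytokinesis, had -2.83 and -2.63 with PGE2, against -1.95 and -1.96 in control, at -0.78 ± 0.16 (adjusted p = 0.148). Kif20a, a kinesin of the central spindle, had -2.63 and -2.15 with PGE2, against -1.61 and -0.85 in control, at -1.16 ± 0.34 (adjusted p = 0.224). Both kinesin genes lay lower without overlap.

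Ect2, the exchange factor that activates RhoA at the cell equator, had -4.01 and -3.75 with PGE2, against -3.26 and -2.99 in control, at -0.76 ± 0.20 (adjusted p = 0.188, limma). It was well above background on 1 PGE2 array. Prc1, which bundles the microtubules of the central spindle, stood at -0.73 ± 0.29, and its other kept probe at -0.78. Centralspindlin is made of Kif23 and Racgap1, which stood on opposite sides of 0. Kif23 stood at -0.52 ± 0.30 with overlapping groups. Racgap1 had 0.27 and -0.16 with PGE2, against -0.29 and -0.33 in control, at 0.36 ± 0.21 (adjusted p = 0.441), but its 2 dimmer kept probes gave 0.96 and -0.41, so that its direction is not settled.

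Of the genes of chromosome structure all 6 were measured and 4 were below 0 (median -0.45). Mki67, the gene of the proliferation marker Ki-67, which coats mitotic chromosomes, had -3.78 and -2.99 with PGE2, against -1.68 and -0.85 in control. Its change was -2.12 ± 0.43, or 4.34-fold lower (adjusted p = 0.137, limma), and -1.25 with normexp. The lower control array was still well above the higher PGE2 array. Top2a, the topoisomerase that untangles sister chromatids, had -1.12 and -1.12 with PGE2, against -0.79 and -0.59 in control, at -0.43 ± 0.16 (adjusted p = 0.294). Its dimmer kept probe gave 0.08. Mki67 and Top2a, both common markers of cycling cells, thus differed in size.

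Condensin genes were split. Smc4, an ATPase of condensin, had 0.97 and 1.14 with PGE2, against 1.48 and 1.55 in control, at -0.46 ± 0.16 (adjusted p = 0.268, limma). Its 3 kept probes lay between -0.50 and -0.40. Its partner Smc2 had -1.50 and -1.14 with PGE2, against -1.77 and -1.12 in control, at 0.13 ± 0.29, with its 3 kept probes between -0.13 and 0.46. The non-SMC subunits Ncapg and Ncaph stood at -0.53 ± 0.30 and 0.12 ± 0.43. Ncaph had -0.99 and -0.55 with PGE2, against -1.44 and -0.35 in control, and its groups overlapped.

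**Figure D3:**
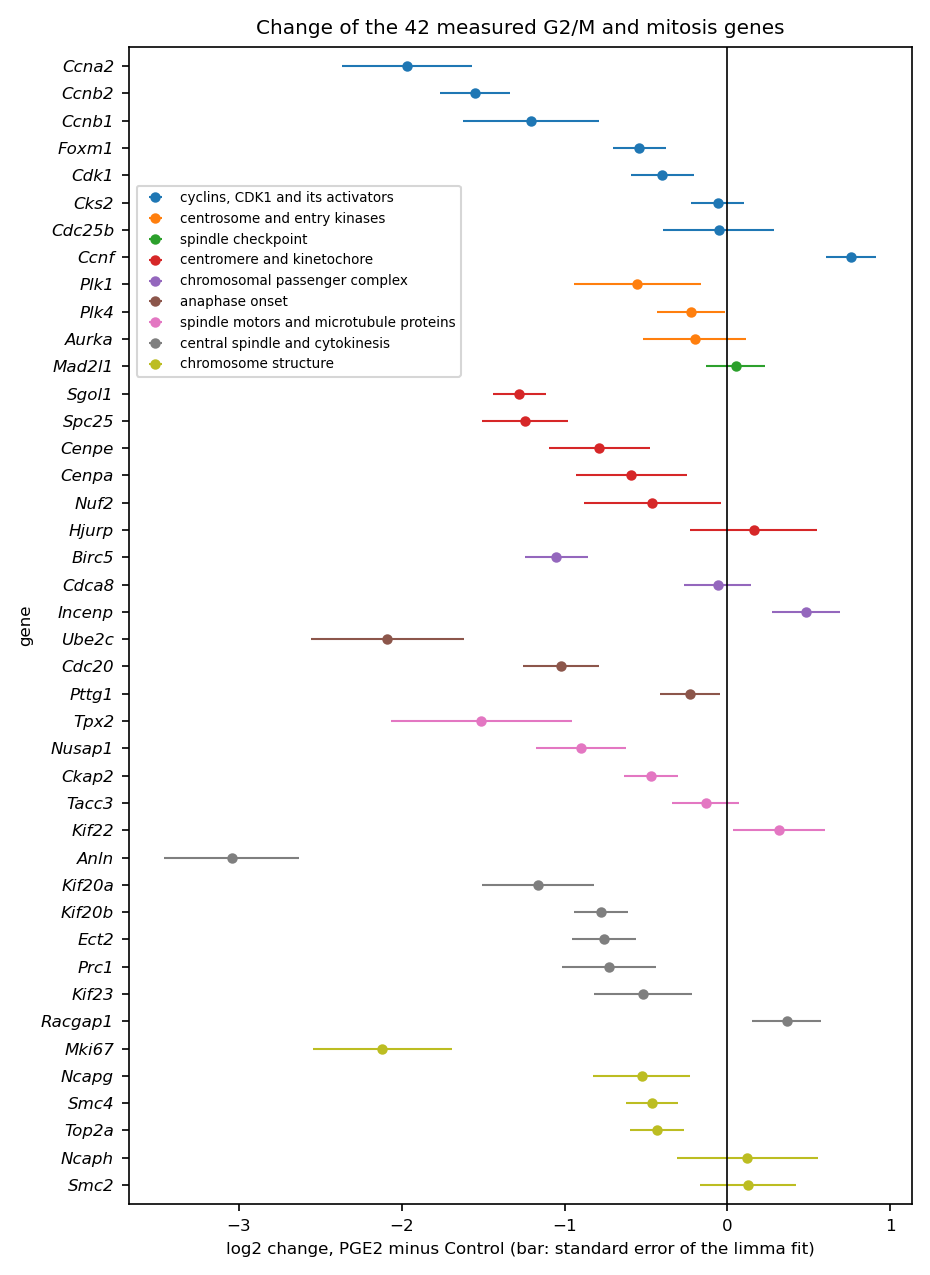
Log2 change (PGE2 minus control) of the 42 measured genes, ordered within each role, with bars for the limma standard error (n = 2 arrays per group). Anln lies lowest at -3.04 and Ccnf highest at 0.76, and no gene had an adjusted p under 0.05.

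Most genes with several usable probes gave the same answer on each. Of 125 probes for the 60 genes 58 passed the filter, and 13 genes had more than 1. The probes had 1 sign in 9 of these genes and both signs in 4, Racgap1, Smc2, Tacc3 and Top2a. The 3 genes with the widest gap between their probes were Racgap1, Smc2 and Top2a. Cdc20, Spc25, Prc1, Smc4, Plk4 and Cks2 were below 0 on every kept probe, and Incenp, Mad2l1 and Ncaph were above 0 on every kept probe.

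**Figure D4:**
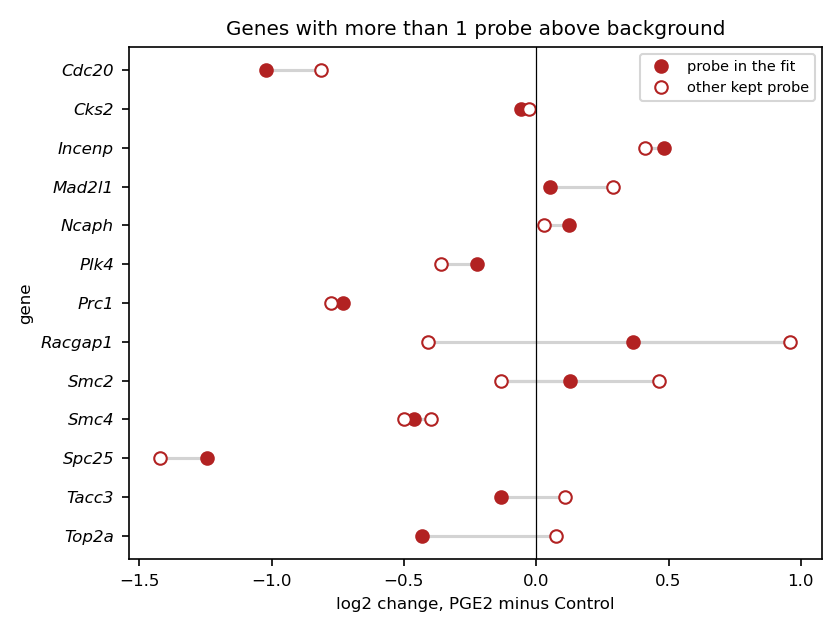
Log2 change (PGE2 minus control) on each probe that passed the filter, for the 13 genes with more than 1, with filled points for the probe used in the fit. Points of Racgap1, Smc2, Tacc3 and Top2a lie on both sides of 0.

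Other genes of mitosis, from a list of 60 that holds none of the genes above, were measured in 37. Of these 23 were below 0 (62.2%) and 10 were lower and 0 higher at an unadjusted p under 0.05, with a median of -0.19. Limma called 1 of the 37, lower. Cdca2, a phosphatase subunit that acts on chromosomes at mitotic exit, was at least 1.97-fold lower (adjusted p = 0.0464, limma). It had -5.58 and -5.88 with PGE2, against -3.52 and -3.23 in control, on a probe not well above background on either PGE2 array, so that the fold is a bound against the dimmest signals that were. The call was lost in 10 of the 12 alternatives that tested it, among them each left-out array (adjusted p 0.0448 to 0.240 over the 12). Spc24, which pairs with Spc25, stood at -1.68 ± 0.19 (adjusted p = 0.0645), Gtse1, a microtubule protein of G2 and mitosis, at -1.89 ± 0.29 and Fam64a at -1.55 ± 0.24. With normexp they stood at -0.74, -0.80 and -0.69 in that order. These 3 genes too passed the filter through the control arrays alone.

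The regulators of the late cell cycle genes had a median near 0, with single genes on both sides of it. Foxm1, at -0.54, is counted with the cyclins above. Of 14 genes for MuvB, DREAM and MYB subunits all 14 were measured, 5 were below 0, and the median was 0.11. At an unadjusted p under 0.05, 1 was lower, Mybl1 at -0.47 ± 0.16, and 2 were higher, E2f5 at 0.56 ± 0.16 and the MuvB subunit Lin9 at 0.71 ± 0.24, all with adjusted p above 0.2 (limma). Mybl2, the gene of B-MYB and itself a cell cycle gene, had -2.23 and -2.31 with PGE2, against -2.25 and -1.83 in control, at -0.23 ± 0.21. The 14 core subunits of the APC/C ran from -0.43 to 0.34 (median 0.04), with 0 of them called by limma and 0 at an unadjusted p under 0.05, Cdc26 at 0.34 ± 0.15 and Anapc7 at -0.34 ± 0.15 among them. The co-activator gene Cdc20 and the enzyme gene Ube2c, described above, thus stood lower than every core subunit of the complex they serve.

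Brakes on the cycle did not point 1 way. Of 14 genes 6 were lower and 2 higher at an unadjusted p under 0.05 (median -0.06), and limma called 1. Gadd45a, a stress protein that can inhibit CDK1, rose by 2.87 ± 0.20 (adjusted p = 0.0451), with 2.54 and 2.14 on the PGE2 arrays, against -0.49 and -0.56 on the control arrays. Its call was lost in 5 of 13 alternatives, among them without PGE2 replicate 1 and without either control array (adjusted p 0.0348 to 0.215 over the 13). The CDK inhibitor gene Cdkn1c, for p57, had 2.71 and 4.04 with PGE2, against -0.56 and 1.87 in control, at 2.72 ± 0.97 (adjusted p = 0.275). Its arrays did not overlap but differed widely within each group. Other inhibitor genes stood lower with PGE2, with Cdkn1a at -1.16 ± 0.21, Cdkn2a at -0.91 ± 0.19 and Cdkn2b at -1.79 ± 0.34, while Cdkn1b stood at 0.25 ± 0.16. Of these, Cdkn2a was named after its value was seen. Pkmyt1, whose kinase holds CDK1 inactive until mitosis, had -2.25 and -1.85 with PGE2, against -0.81 and -0.63 in control, at -1.33 ± 0.21 (adjusted p = 0.103).

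Earlier in the cycle, 33 of 36 genes of DNA replication and G1/S were measured, with 20 below 0, 9 lower and 1 higher at an unadjusted p under 0.05, 0 called by limma and a median of -0.14. Of the cyclin D genes, which act in G1, Ccnd1 stood at -1.76 ± 0.19 (adjusted p = 0.0616) and Ccnd2 at -1.23 ± 0.15, but Ccnd3 at 0.20 ± 0.20, a gene named after its value was seen. The ribonucleotide reductase gene Rrm2 stood at -0.87 ± 0.16. Mcm10, a replication initiation gene, stood at -1.20 ± 0.24, or -0.43 with normexp. Pcna, the replication clamp, had 2.71 and 2.72 with PGE2, against 2.80 and 2.59 in control, at 0.02 ± 0.16. No test of the difference between these lists and the mitotic genes was made.

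**Figure D5:**
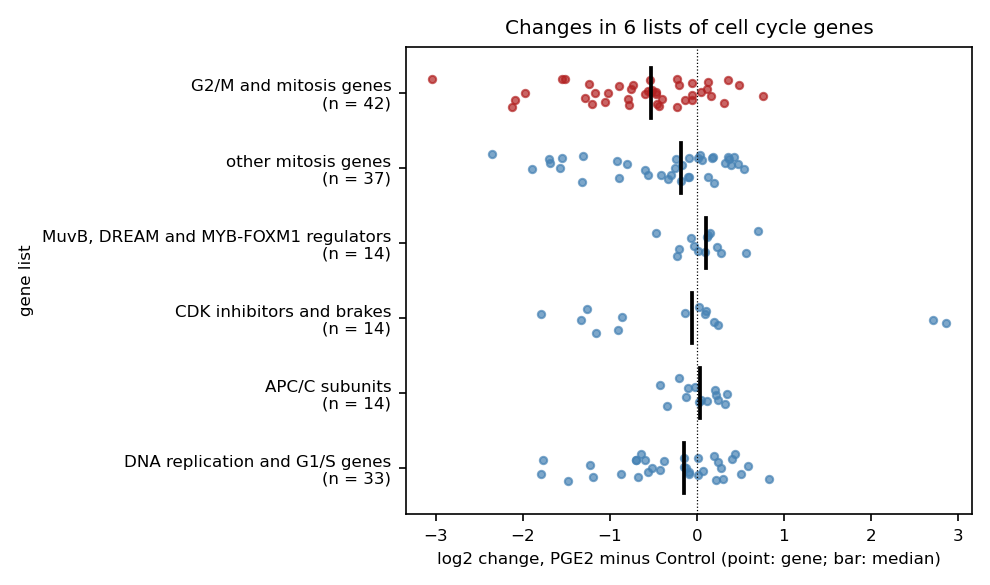
Log2 change (PGE2 minus control) of each measured gene in 6 lists, 1 point per gene, with a bar at the median of each list. The median of the 42 G2/M and mitosis genes is -0.52, and those of the other 5 lists lie between -0.19 and 0.11.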

How the data were processed

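Per the labels' protocols, 0.1 μg of total RNA per culture was amplified and labelled with Cy3. The deposited scanner files give an intensity per spot after Agilent background correction, made with Feature Extraction 11.5.1.1 per the file headers and with version 12.0.3.1 per the submitters' processing notes, and the probe design is on build mm9. The authors' deposited series table holds these intensities, multiplied by a constant for each array, and gave the gene symbols; its column medians are 39.9 and 40.5 for PGE2 and 32.7 and 42.9 for control. Its 4 other value columns, a detection call for each array, were not used.

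Of 59305 non-control spots, those of 1 probe were averaged, and 158 of 56605 probes that carried outlier flags were dropped. The log2 processed intensity was centred on the 75th percentile of each array, which hides a change shared by most transcripts. Probes passed if 1 group or both had them well above background on 2 of 2 arrays (26100 probes), and the brightest kept probe stood for a gene. Groups came from the sample titles. PGE2 was compared with control by limma 3.58.1 in R 4.3.3 with eBayes and Benjamini-Hochberg adjustment at a threshold of 0.05 (2 residual and 2.15 prior degrees of freedom), without a block for the replicate number. The steps were tested on simulated data. Python 3.11.15, pandas 2.3.3, numpy 2.4.6 and matplotlib 3.10.9 made the summaries and plots. All 4 arrays carry 1 scan identifier, so no scan batch could be tested. Gene IDs were matched to RefSeq names of GRCm38.p6 (44970 of 47700 spots with a symbol), and promoters are from RefSeq, same build. Members, roles and lists were chosen with earlier results of these data known. All 60 genes were named, and of the other lists up to 4 genes with the smallest p, any called gene and 8 genes given by name. The values of 1 marker gene are not reported here. Array values were set for the 15 members with the smallest p, 9 given by name and every tested member above 0, and promoters for up to 4 members with the smallest p that hold both motifs. The alternatives were other scalings, background corrections, filters, probe rules and variance priors, a replicate block, and leaving out each array. Normexp was run on the median signal with an offset of 50, followed by quantile normalization. The planned mean signal was not among the values in the scanner files, so the median signal was chosen after seeing them.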

Additional observations from a re-analysis of the deposited data

How the results depend on the processing

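The median change of the mitotic genes stayed below 0 in all 13 alternatives. It was -0.26 on the authors' deposited scaled signal, where the median of all genes was 0.23; a constant for each array shifts all changes alike. It was -0.31 with normexp and quantile normalization, and without an array it ran from -0.59 to -0.37. Genes lower at an unadjusted p under 0.05 numbered 10 on the authors' scale and from 10 to 21 without an array. With no array left out and dim probes filtered, genes with both PGE2 arrays below both control arrays numbered from 18 to 25, against 24 as reported. The 18 came on the authors' scale, where this order held in 14.0% of all genes, against 28.3% as reported. Without the filter on dim probes the order held in 36 of 60, beside 35.3% of all genes. With an array left out the order compares 1 array with 2 and is easier to meet, so those counts cannot be set against the 24. Over all genes limma called 70 higher and 48 lower, against 0 and 0 on the authors' scale and 0 and 0 without the filter on dim probes (4203 and 2685 genes at an unadjusted p under 0.05), 39 and 15 with the filter for all 4 arrays, and from 0 to 98 higher and from 0 to 76 lower without an array. The counts of 0 came on leaving out either control array (2710 genes at an unadjusted p under 0.05 without control replicate 1, and 2963 without control replicate 2). With the replicate number as a block, limma called 84 lower genes and 1 mitotic gene, Mki67 (adjusted p = 0.0473). Deviations of equal numbers correlated at 0.42 across genes, but 2 pairs cannot show that the numbers pair the cultures. The planned normexp on the mean signal was not run.

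Of the 42 genes 30 kept their sign in every alternative. On the authors' scale Cks2 turned to 0.20, Cdc25b to 0.21, Plk4 to 0.0336, Aurka to 0.0575, Cdca8 to 0.20, Pttg1 to 0.0296, Tacc3 to 0.12, Mybl2 to 0.0280 and Pecam1 to 0.11. With quantile normalization Cdc25b turned to 0.00750, Pecam1 to 0.00439 and Pcna to -0.00706, and with normexp Cdc25b to 0.0249. The ranges without an array that crossed 0 were Cks2 from -0.15 to 0.0336, Cdc25b from -0.49 to 0.39, Aurka from -0.60 to 0.20, Mad2l1 from -0.0628 to 0.17, Hjurp from -0.35 to 0.67, Nuf2 from -1.02 to 0.10, Cdca8 from -0.26 to 0.14, Tacc3 from -0.33 to 0.0656, Ncaph from -0.42 to 0.67, Smc2 from -0.19 to 0.45, Pecam1 from -0.31 to 0.00510, Thy1 from -3.40 to 0.0772, Pdgfra from -0.23 to 1.43 and Pcna from -0.0856 to 0.12. With 2 arrays per group, signal near background limits all values of dim genes.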
